A study of Mus musculus with 12 samples.

Results

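The 9 genes described here are known from granule cells of the cerebellum and the neurons that arise beside them, and they were picked by name out of 55418 genes: *Gabra6*, *Cbln3*, *Cbln1*, *Eomes*, *Neurod1*, *Fat2*, *Zic1*, *Zic2* and *Etv1*. They were measured in the brainstem of 12 outbred CFW mice at P15. The mice had been injected repeatedly each day with morphine (MOR) or saline (SAL), from P1 to the day before tissue was taken, a mouse model of neonatal opioid withdrawal. The paper describes the morphine mice as in spontaneous withdrawal when tissue was taken. No transgene or deletion is named in the labels. There were 3 SAL females, 3 SAL males, 3 MOR females and 3 MOR males, and each mouse gave 1 library of poly-A RNA. The tissue label reads brainstem, whereas the deposited extraction text speaks of spinal cords, and the label was followed. The values of MOR against SAL were known when the genes were picked, so they are given here as a description and without a test. The comparison of males with females was not used in picking them and was tested.

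Granule cells are the small excitatory neurons whose parallel fibers contact Purkinje cells. They are born from a germinal layer that arises at the rhombic lip, and their precursors use *Zic1*, *Zic2* and *Neurod1* before the mature cells turn on *Gabra6* and *Cbln3*. Unipolar brush cells come from the same lip and carry *Eomes*. Smaller populations of granule cells and unipolar brush cells also lie in the cochlear nuclei of the brainstem itself, so such genes need not be foreign to this tissue.

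Per library, 27850565 to 48097947 counts fell on genes, and the TMM factors, which correct for unequal library composition, lay between 0.964 and 1.05. Levels are CPM, counts scaled to a fixed library total after TMM normalization. Brainstem markers were present throughout: a list of 6, with glycine transporter *Slc6a5*, *Tph2*, *Dbh*, *Chat* and *Hoxb2* among them, summed to between 519.0 and 701.7 CPM, whereas 5 genes of forebrain neurons summed to between 8.16 and 14.7 CPM. 1 library stood apart from its label: MOR male 6 had 380.2 CPM of *Xist*, the RNA that coats the inactive X, where the other males had 0.399 to 2.65 CPM and the females 550.6 to 977.8 CPM. The Y-linked genes *Uty*, *Kdm5d*, *Ddx3y* and *Eif2s3y* reached 8.37% to 29.5% of their mean in the other males. It was kept as labelled, and the male log2 fold changes of *Gabra6*, *Cbln3*, *Eomes*, *Neurod1* and *Fat2* are given with and without it. Those of other genes, and the differences between the changes in males and in females, are given only with it. In bulk RNA, fewer cells of a type and less RNA per cell cannot be told apart.

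All 9 genes are protein-coding, and all passed the filter on low counts. In GENCODE M21 on GRCm38, *Gabra6* (ENSMUSG00000020428) lies on chromosome 11 from 42306437 to 42321072, and *Fat2* (ENSMUSG00000055333) lies on the same chromosome from 55250609 to 55336564. *Cbln3* (ENSMUSG00000040380) and *Zic2* (ENSMUSG00000061524) are on chromosome 14, at 55878913 to 55884392 and at 122475435 to 122479852. *Eomes* (ENSMUSG00000032446) and *Zic1* (ENSMUSG00000032368) are on chromosome 9, at 118478212 to 118486132 and at 91358058 to 91365810. *Cbln1* (ENSMUSG00000031654) is on chromosome 8 from 87468405 to 87472609, *Neurod1* (ENSMUSG00000034701) on chromosome 2 from 79452521 to 79456751, and *Etv1* (ENSMUSG00000004151) on chromosome 12 from 38779380 to 38870484. Some exons are shared with other genes, which makes their counts less certain: *Neurod1* shares 201 exon bases with *Cerkl* on its own strand and 154 with the opposite-strand lincRNA gene *Gm26755*, *Eomes* shares 118 with the antisense gene *Gm33460*, and *Zic1* shares 60 with its opposite-strand neighbor *Zic4*.

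*Gabra6*, *Eomes*, *Cbln3* and *Neurod1* varied together from mouse to mouse, whereas *Fat2* followed them loosely, so the RefSeq promoter windows of these 5 genes are printed for comparison. RefSeq's table of promoters on GRCm38.p6 held 7 of the 9 genes, and *Cbln1* and *Zic2* had no entry. Each window runs 5′ to 3′ on the strand of the gene, from 250 bases before the RefSeq start to 50 bases after it. Capitals mark the half-site of nuclear factor I (NFI) proteins, TTGGC, searched on both strands and read here as GCCAA. NFI proteins are known to act on the *Gabra6* promoter in granule neurons. The windows are chr11:42321023-42321322 (minus strand) for *Gabra6*, chr9:118477939-118478238 (plus strand) for *Eomes*, chr14:55884207-55884506 (minus strand) for *Cbln3*, chr2:79456587-79456886 (minus strand) for *Neurod1* and chr11:55312208-55312507 (minus strand) for *Fat2*.
Gabra6: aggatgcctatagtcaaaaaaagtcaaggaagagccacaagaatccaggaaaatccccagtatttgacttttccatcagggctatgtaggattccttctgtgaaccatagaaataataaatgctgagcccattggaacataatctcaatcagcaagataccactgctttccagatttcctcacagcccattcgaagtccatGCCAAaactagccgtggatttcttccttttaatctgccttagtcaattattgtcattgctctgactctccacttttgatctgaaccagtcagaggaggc
Eomes: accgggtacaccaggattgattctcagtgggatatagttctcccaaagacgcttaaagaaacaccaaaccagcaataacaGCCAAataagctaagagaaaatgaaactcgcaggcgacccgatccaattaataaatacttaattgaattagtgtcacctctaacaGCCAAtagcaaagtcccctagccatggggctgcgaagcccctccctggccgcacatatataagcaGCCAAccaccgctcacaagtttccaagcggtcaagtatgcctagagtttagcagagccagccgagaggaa
Cbln3: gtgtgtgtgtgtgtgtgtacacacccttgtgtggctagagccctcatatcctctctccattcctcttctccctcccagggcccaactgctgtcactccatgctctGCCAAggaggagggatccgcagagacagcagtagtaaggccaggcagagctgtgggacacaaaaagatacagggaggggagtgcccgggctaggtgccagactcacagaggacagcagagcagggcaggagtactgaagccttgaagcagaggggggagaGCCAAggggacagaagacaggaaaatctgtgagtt
Neurod1: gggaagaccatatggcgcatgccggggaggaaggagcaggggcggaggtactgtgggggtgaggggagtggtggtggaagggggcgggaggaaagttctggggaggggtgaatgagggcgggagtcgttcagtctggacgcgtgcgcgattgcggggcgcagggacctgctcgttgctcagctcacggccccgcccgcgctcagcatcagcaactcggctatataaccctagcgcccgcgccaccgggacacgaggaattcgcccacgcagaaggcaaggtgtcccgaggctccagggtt
Fat2: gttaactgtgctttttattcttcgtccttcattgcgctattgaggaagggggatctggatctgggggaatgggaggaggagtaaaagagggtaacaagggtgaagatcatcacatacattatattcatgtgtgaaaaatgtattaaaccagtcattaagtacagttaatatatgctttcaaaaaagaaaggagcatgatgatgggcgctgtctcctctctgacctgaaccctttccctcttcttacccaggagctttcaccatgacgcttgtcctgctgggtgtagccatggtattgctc

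The half-site was found 1 time in the *Gabra6* window, 2 times in that of *Cbln3* and 3 times in that of *Eomes*, and it was found in neither the *Neurod1* nor the *Fat2* window. In *Gabra6* the match began 49 bases before the start, and in *Eomes* the matches began 170, 85 and 20 bases before it. The same letters occur in 46.7% of the 32851 windows in the table, so such matches are common. CAGATG, an E-box to which *Neurod1* binds, was in none of the 5 windows and in 17.2% of all windows. CAGCAGG, a sequence bound by Zic proteins, was found 1 time, 22 bases after the *Fat2* start, and is in 10.5% of all windows. GC content ranged from 42.0% in *Gabra6* and 43.7% in *Fat2* to 66.7% in *Neurod1*, against a median of 52.7%. The RefSeq starts of *Fat2*, *Cbln3* and *Neurod1* lie inside the genes as GENCODE draws them. The windows of *Cbln3* and *Neurod1* span the GENCODE start of the gene. That of *Fat2*, from 55312208 to 55312507, lies wholly inside a minus-strand gene that begins at 55336564. Whether the *Fat2* window acts as a promoter was not tested, so its matches and GC content may not describe a promoter.

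The genes differed widely in level. Per kilobase of exon, *Zic1* averaged 13.7 CPM over the 12 libraries and ranged from 10.4 to 17.3 CPM. *Cbln1*, which encodes a secreted protein that links parallel fibers to Purkinje cells at their synapses, averaged 11.6 CPM per kilobase, with a range of 9.61 to 13.5 CPM that overlapped that of *Zic1*. *Zic2* followed at 6.74 CPM per kilobase and *Etv1* at 4.15 CPM, and their ranges touched only at the edge, 4.93 to 8.89 CPM against 3.32 to 5.06 CPM. *Gabra6* (mean 2.73 CPM per kilobase), *Neurod1* (2.25), *Cbln3* (1.68) and *Fat2* (1.07) formed a lower band of overlapping ranges, of which that of *Gabra6* reached up to 7.69 CPM. *Eomes* was the lowest, at 0.378 CPM per kilobase and between 0.0368 and 1.27 CPM.

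**Figure D1:**
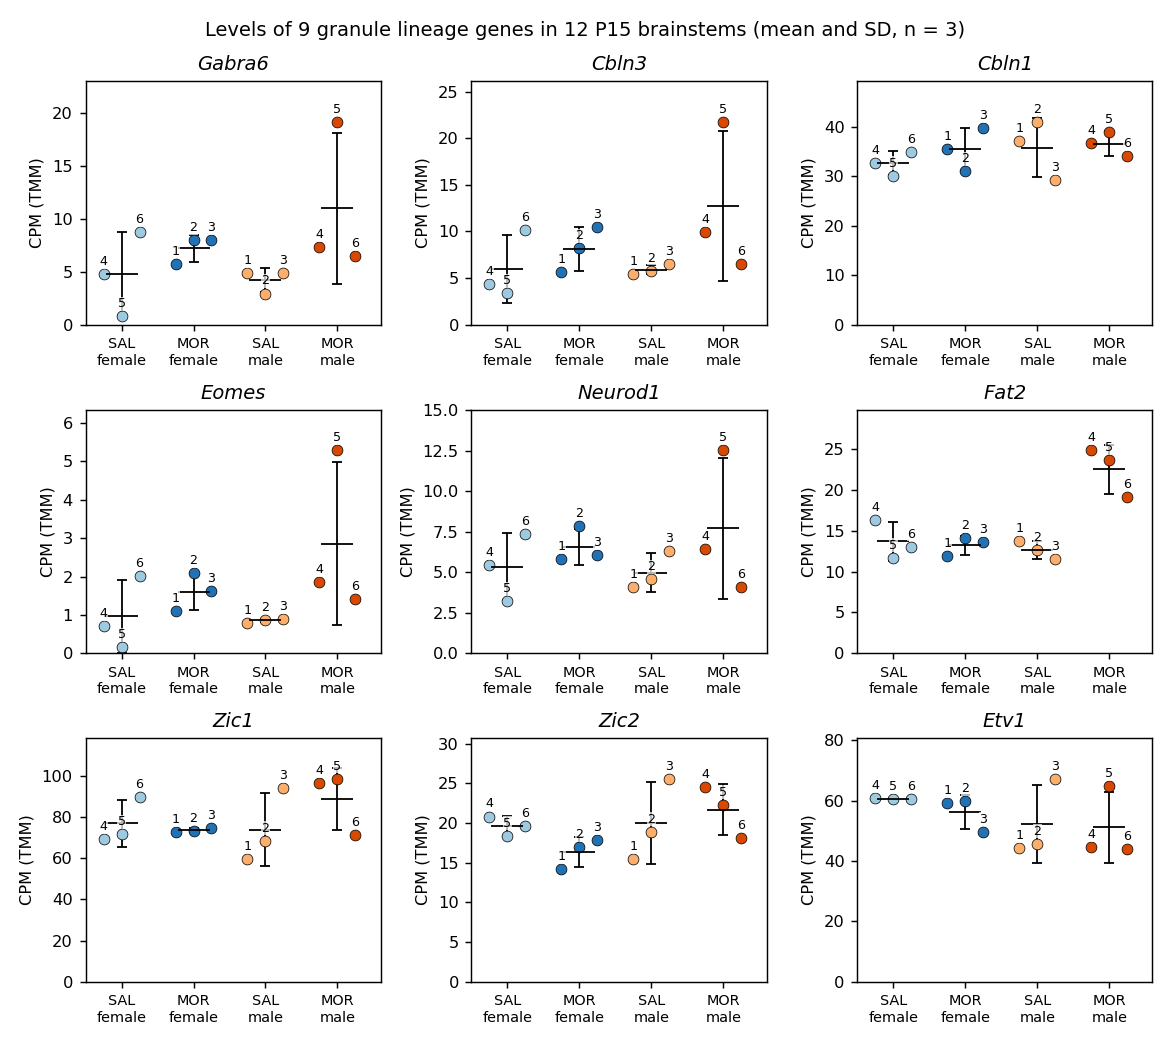
CPM of each of the 9 genes in the 12 mice, by group, with 1 point per mouse (numbered as in the labels) and bars for the mean and SD of 3 mice. MOR male 5 is the highest point for *Gabra6*, *Cbln3*, *Eomes* and *Neurod1*, and the 3 MOR males lie above the other 9 mice for *Fat2* alone.

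Among the genes of mature granule cells, *Gabra6* encodes the α6 subunit of the GABA-A receptor. It stood at 5.76, 7.97 and 7.94 CPM in MOR females 1, 2 and 3 and at 4.77, 0.795 and 8.73 CPM in SAL females 4, 5 and 6. In males it was at 7.33, 19.1 and 6.44 CPM in MOR males 4, 5 and 6 and at 4.84, 2.95 and 4.91 CPM in SAL males 1, 2 and 3. MOR male 5 stood far above every other mouse and SAL female 5 far below, the groups overlapped in females, and the MOR males lay above the SAL males. The log2 fold change of MOR over SAL was 0.99 (standard error 0.44) in the sex-combined fit, 0.58 (0.57) in females and 1.35 (0.46) in males.

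*Cbln3*, a cerebellin of granule cells that is secreted only together with *Cbln1*, followed the same mice. Its levels were 5.70, 8.20 and 10.5 CPM in MOR females 1 to 3 and 4.33, 3.39 and 10.2 CPM in SAL females 4 to 6. In MOR males 4 to 6 it was at 9.93, 21.8 and 6.53 CPM, and in SAL males 1 to 3 at 5.49, 5.79 and 6.48 CPM. MOR male 6, at 6.53 CPM, was barely above SAL male 3, at 6.48 CPM, so the separation of the male groups was narrow, and the female groups overlapped. The log2 fold change was 0.77 (standard error 0.33) in the sex-combined fit, 0.42 (0.38) in females and 1.08 (0.42) in males. Its partner *Cbln1* varied little. *Cbln1* ranged from 29.2 CPM in SAL male 3 to 41.0 CPM in SAL male 2, all groups overlapped, and its log2 fold changes were 0.08 (0.10), 0.11 (0.12) and 0.01 (0.17) in the same 3 fits.

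*Fat2*, an atypical cadherin that sits on parallel fibers, had another pattern. It was at 24.9, 23.6 and 19.2 CPM in MOR males 4 to 6 and at 13.7, 12.6 and 11.5 CPM in SAL males 1 to 3. In females it was at 11.9, 14.1 and 13.6 CPM in MOR mice and at 16.4, 11.7 and 13.0 CPM in SAL mice. The MOR males were above all other mice, by group mean 22.6 ± 3.00 CPM against 12.6 ± 1.11 CPM in SAL males (SD, n = 3), whereas MOR females (13.2 ± 1.14 CPM) and SAL females (13.7 ± 2.42 CPM) overlapped. The log2 fold change was 0.81 (standard error 0.17) in males, -0.06 (0.15) in females and 0.39 (0.17) in the sex-combined fit. The change in males exceeded that in females by 0.89 (0.23) on the log2 scale. The same difference was 0.78 (0.87) for *Gabra6*, 0.67 (0.64) for *Cbln3* and 0.99 (0.94) for *Eomes*, so *Fat2* had the smallest error of the 4 by far.

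*Eomes*, a T-box transcription factor of unipolar brush cells, had the lowest counts, from 5 in SAL female 5 to 161 in MOR male 5. It was at 1.11, 2.09 and 1.63 CPM in MOR females 1 to 3 and at 0.698, 0.153 and 2.03 CPM in SAL females 4 to 6. MOR males 4 to 6 were at 1.85, 5.30 and 1.42 CPM, and SAL males 1 to 3 were tightly grouped at 0.801, 0.876 and 0.890 CPM. As with *Gabra6*, MOR male 5 was highest and SAL female 5 lowest. The log2 fold change was 1.24 (standard error 0.48) in the sex-combined fit, 0.72 (0.65) in females and 1.70 (0.51) in males.

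Of the transcription factors of precursors and young granule cells, *Neurod1* was the one that followed *Gabra6*. It was at 5.79, 7.85 and 6.06 CPM in MOR females, 5.44, 3.21 and 7.36 CPM in SAL females, 6.46, 12.5 and 4.11 CPM in MOR males, and 4.06, 4.55 and 6.32 CPM in SAL males. Both sexes overlapped between treatments, since MOR male 6 was about as low as SAL male 1. The log2 fold change was 0.46 (standard error 0.26) in the sex-combined fit, 0.29 (0.28) in females and 0.60 (0.41) in males. *Zic1*, a zinc finger factor of the dorsal hindbrain, ranged from 59.4 CPM in SAL male 1 to 98.6 CPM in MOR male 5, with log2 fold changes of 0.10 (0.13), -0.07 (0.12) and 0.24 (0.22). SAL male 3, at 93.8 CPM, stood among the MOR males.

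*Zic2*, its close relative, was lower in MOR females, at 14.2, 16.9 and 17.8 CPM, than in SAL females, at 20.8, 18.4 and 19.7 CPM, and these groups did not overlap. Its log2 fold change there was -0.27 (standard error 0.12), against 0.09 (0.23) in males and -0.07 (0.14) in the sex-combined fit. *Etv1*, an ETS factor of maturing granule cells, was also without overlap in females, with 59.1, 59.8 and 49.8 CPM in MOR mice and 60.9, 60.5 and 60.6 CPM in SAL mice. The difference was small, at -0.12 (0.10), and its values in males (-0.06, 0.24) and in the sex-combined fit (-0.07, 0.13) were within 1 standard error of 0.

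**Figure D2:**
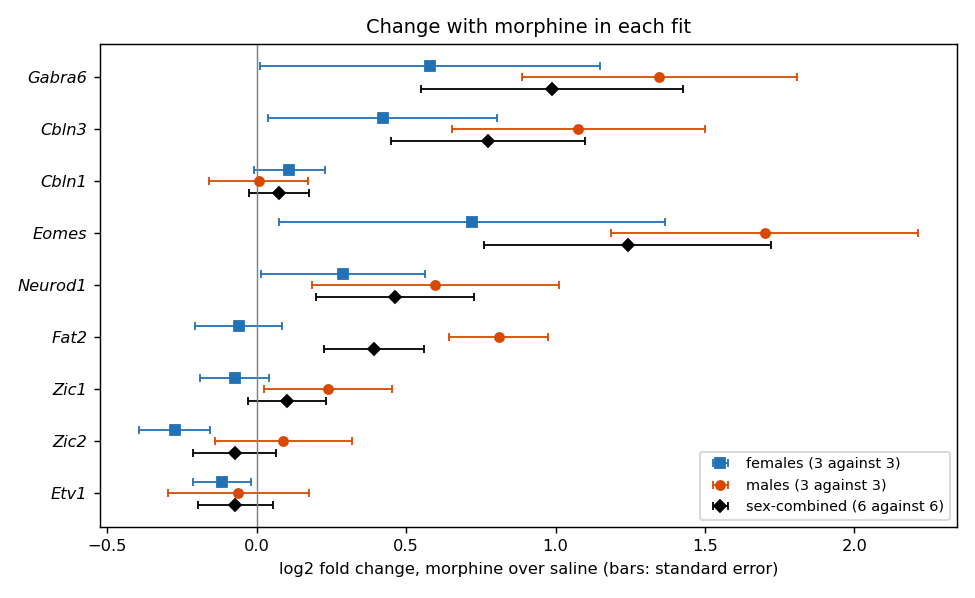
Log2 fold change of MOR over SAL (x axis) for each gene, with the standard error as bars, in females (3 against 3), males (3 against 3) and the sex-combined fit (6 against 6). *Gabra6*, *Cbln3*, *Eomes* and *Fat2* lie furthest to the right in males, while *Fat2* in females lies at -0.06.

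The study's thresholds for DE genes, a log2 fold change beyond 0.26 in either direction together with an unadjusted *p* below 0.05, were passed by 4 of the 9 genes in the sex-combined fit, *Gabra6*, *Cbln3*, *Eomes* and *Fat2*, all higher in MOR mice. Over all 19027 tested genes, 1.24% passed, 0.61% in the higher direction. Above 0 were 7 of the 9 genes (42.5% of all genes), and for 0 of the 9 were the groups without overlap (0.042% of all genes). In females 1 gene passed, *Zic2*, lower in MOR mice (1.81% of all tested genes, 0.884% lower), and 2 genes, *Zic2* and *Etv1*, had groups that did not overlap (2.77% lower over all genes). In males *Gabra6*, *Cbln3*, *Eomes* and *Fat2* passed and had groups without overlap (2.99% of all tested genes passed and 1.92% were higher, and 5.52% were higher without overlap). The median log2 fold change of the 9 genes was 0.39 in the sex-combined fit, 0.11 in females and 0.60 in males, and over all tested genes it was -0.02, -0.01 and -0.06. After Benjamini-Hochberg adjustment, 0 of all tested genes were below 0.05 by edgeR's quasi-likelihood test in each of the 3 fits. The 9 genes were picked with these contrasts known, so nothing is read from these counts.

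Males against females, with treatment as a covariate, is the comparison that the choice of genes did not use. None of the 9 genes passed. By the quasi-likelihood test of edgeR, 0 were below 0.05 after Benjamini-Hochberg adjustment and 0 before it, and DESeq2 and edgeR's exactTest gave 0 as well. Over all tested genes, 0.0263% were below 0.05 after adjustment and 4.57% before it. The smallest adjusted *p* among the 9 was 0.738. *Fat2* was at 17.6 ± 5.80 CPM in males and 13.4 ± 1.71 CPM in females (SD, n = 6), a log2 difference of 0.33 (standard error 0.17). The high male mean came from the MOR males, at 22.6 CPM, whose level was known when the genes were picked, while SAL males were at 12.6 CPM and SAL females at 13.7 CPM. *Zic2* differed by 0.22 (0.14) and *Etv1* by -0.17 (0.13), and *Gabra6*, at 0.22 (0.43), had an error larger than its difference. Leaving out any 1 mouse, the library labelled MOR male 6 included, left the count at 0.

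The spread between mice of 1 group set *Gabra6* and *Eomes* apart from the rest. Their pooled within-group SD was 1.00 and 0.99 on the log2 scale, larger than in 98.8% and 98.7% of tested genes, where the median was 0.29. *Cbln3* (0.64) and *Neurod1* (0.54) also exceeded the median, at 90.1% and 82.2%. *Fat2* (0.18) and *Cbln1* (0.17) were below it, in the lowest 24.3% and 21.2%, and *Zic1*, *Zic2* and *Etv1* were at 0.24, 0.23 and 0.24. Counting error, an SD of 0.126 for *Gabra6* and 0.282 for *Eomes* at their counts, was well below their spread. Between the lowest and the highest library, *Gabra6* spanned 24.1-fold, *Eomes* 34.6-fold, *Cbln3* 6.42-fold and *Neurod1* 3.90-fold, whereas *Fat2* spanned 2.16-fold and *Cbln1* 1.40-fold.

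**Figure D3:**
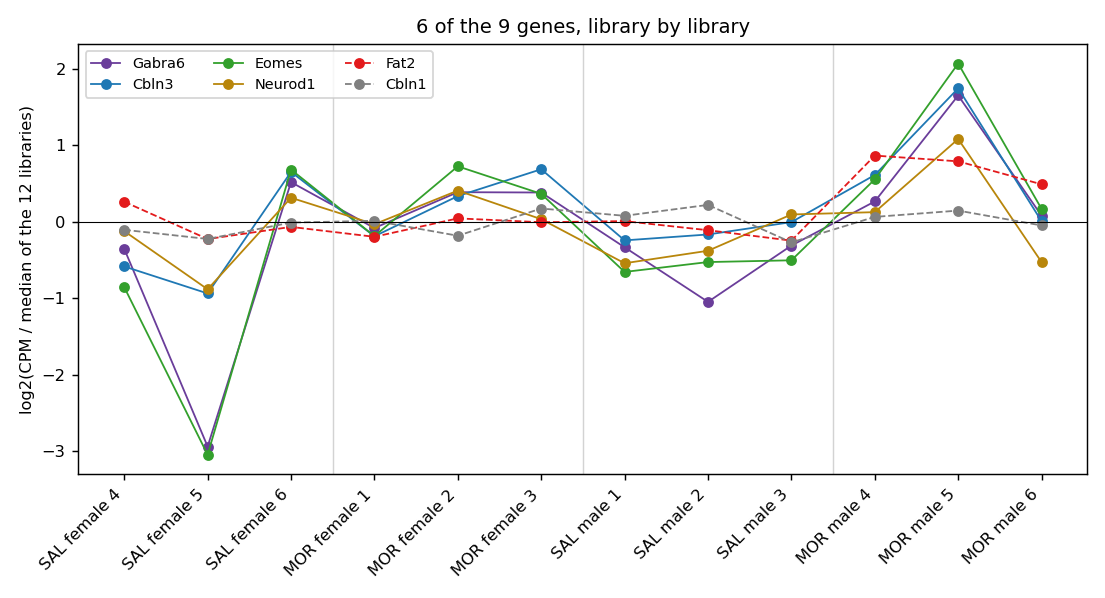
Log2 of the CPM over the gene's median of the 12 libraries (y axis) in each mouse (x axis, SAL and MOR mice of each sex), with *Gabra6*, *Cbln3*, *Eomes* and *Neurod1* as solid lines and *Fat2* and *Cbln1* as dashed lines. The solid lines share a peak in MOR male 5 and a trough in SAL female 5, and in SAL female 5 *Fat2* and *Cbln1* stay near their medians, while *Fat2* is above its median in all 3 MOR males.

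*Gabra6*, *Eomes*, *Cbln3* and *Neurod1*, a subset chosen after their values were seen, varied in step. In the 6 pairs among them, Pearson's r of log2 CPM over the 12 libraries was 0.84 to 0.97 and Spearman's rho 0.79 to 0.97. After each group's mean was subtracted, so that differences between groups dropped out, r was 0.79 to 0.95. This within-group r was at least 0.80 without the library labelled MOR male 6. Without the farthest libraries, MOR male 5 and SAL female 5, r over the other libraries was 0.60 to 0.89. *Eomes* and *Gabra6* were the closest pair: reads of *Eomes* per read of *Gabra6* stayed between 0.146 and 0.297 while *Gabra6* itself spanned 24.1-fold. Of 19026 tested genes, *Eomes* had the highest within-group r with *Gabra6*, 0.95. The libraries share a lane and a normalization, so these correlations describe the 12 libraries and no *p* is given.

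*Fat2* was tied less closely to the 4 genes, with r of 0.43 to 0.59 and rho of 0.32 to 0.48, and r of 0.30 to 0.47 within groups. Without MOR male 5 and SAL female 5, r was -0.10 to 0.31. Per 100 *Fat2* reads there were 6.81 reads of *Gabra6* in SAL female 5 and 81.1 in MOR male 5, and the MOR males 4 and 6, with high *Fat2*, had 29.4 and 33.6. *Zic1* and *Zic2* had r of 0.76 over the 12 libraries (rho 0.55) and 0.80 within groups. *Zic1* was also close to *Neurod1*, with r of 0.71, rho of 0.82 and 0.73 within groups, and its rho was 0.74 with *Cbln3*, 0.72 with *Eomes* and 0.71 with *Gabra6*. *Etv1* and *Cbln1* ran opposite to each other, at -0.55 and -0.46. Within groups, r with *Gabra6* was 0.42 for *Zic1*, 0.33 for *Etv1*, 0.26 for *Cbln1* and 0.25 for *Zic2*.

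**Figure D4:**
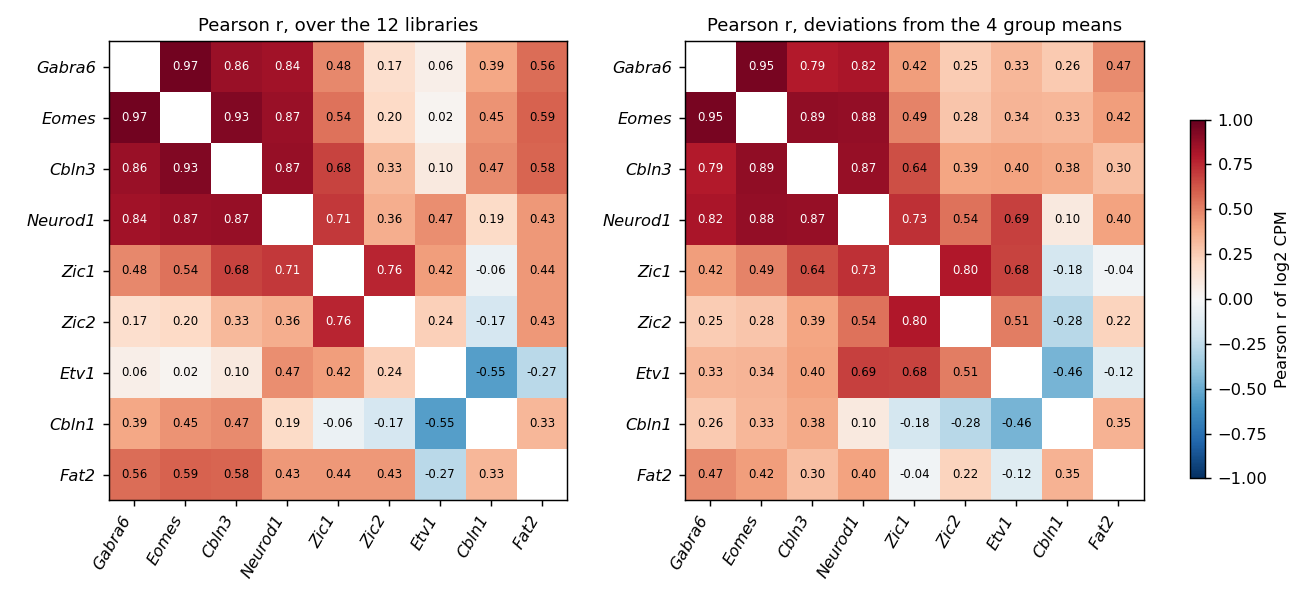
Pearson's r of log2 CPM for each pair of the 9 genes, over the 12 libraries (left) and after subtraction of the 4 group means (right), on a color scale from -1 to 1. The block of *Gabra6*, *Eomes*, *Cbln3* and *Neurod1* at the upper left holds 0.84 to 0.97 on the left and 0.79 to 0.95 on the right, and the *Fat2* row is paler.

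Outside the 9 genes, those most like their mean profile over the 12 libraries (each gene standardized) were *Igfbpl1* (r = 0.90), *Tll1* (0.88), *Arhgef33* (0.88), *Gm42894* (0.87), *Pax6* (0.87), *Wdr72* (0.85), *Wdr78* (0.83), *4930578G10Rik* (0.83), *Clip1* (0.82) and *Adamts18* (0.82). *Pax6*, a transcription factor of the granule lineage, is the one that the marker lists below also hold. Within groups the top 10 were *Abcb1a* (0.93), *Frk*, *Gm4951*, *Ntn4*, *Wdr72*, *Zfp791*, *Atp6ap1l*, *Gm42894*, *Ms4a6c* and *Tbcel* (0.88), of which *Wdr72* and *Gm42894* were in both. For *Gabra6* alone the top 5 were *Igfbpl1* (0.89), *Gm34939* (0.89), *Lmx1a* (0.87), *Tmod4* (0.85) and *Ankrd33b* (0.82), and within groups *Ikzf2* (0.95), *Cd274* (0.92), *Haus1* (0.91), *Ifit3* (0.91) and *Ms4a4a* (0.90). These rankings over 12 libraries are descriptions, and several of the genes are low, *Gm34939* at 0.257 CPM among them.

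Few other markers of granule cells passed the thresholds. Of 18 tested, none passed both thresholds in the sex-combined fit and 10 lay above 0, with a median log2 fold change of 0.02 against -0.02 over all genes. The polo-like kinase gene *Plk5* passed in females (0.58, standard error 0.25) and *Reln*, which encodes the secreted guidance protein reelin, passed in males (0.35, 0.12), each higher in MOR mice and each without overlap of the groups. The other sex had the opposite sign without passing, at -0.90 (0.59) for *Plk5* in males and -0.19 (0.14) for *Reln* in females. The *Reln* levels were 93.5, 91.1 and 83.4 CPM in MOR males and 66.0, 69.7 and 70.1 CPM in SAL males. The largest sex-combined values were those of the GABA-A δ subunit *Gabrd*, the usual partner of *Gabra6*, at 0.36 (0.23), and *Barhl2* at 0.35 (0.27), neither past the thresholds. Within groups, r with *Gabra6* in this list ran from -0.26 for *Cntn2* to 0.59 for *Pax6*. Several others were also below 0, among them *Grm4* (-0.24) and *Plk5* (-0.21), so the list as a whole did not follow *Gabra6*. The list summed to 438.8 to 466.4 CPM in SAL females, 419.9 to 449.9 CPM in MOR females, 403.4 to 597.3 CPM in SAL males and 512.0 to 554.3 CPM in MOR males. The highest sum was in SAL male 2, where *Gabra6* was at 2.95 CPM, and MOR male 5 was at 519.7 CPM. Several of these genes, such as *Grin2c* and *Slc17a7*, are also expressed by other cells of the brainstem. *Cntn2*, named after its values were seen, and *Slc17a7* averaged 120.1 and 88.5 CPM in MOR mice. The sum therefore says little about genes as low as *Gabra6*. Among genes of proliferating precursors, *Atoh1* was at 0 to 0.0611 CPM and could not be tested, and of the other 9, none passed in any fit, with a sex-combined median of -0.05 and *Insm1* (-0.13, standard error 0.18) the furthest from 0.

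Among markers of unipolar brush cells, *Lmx1a* and *Otx2* passed the thresholds. *Lmx1a*, a LIM homeodomain factor of the rhombic lip, was at 1.69, 2.26 and 2.44 CPM in MOR females and 0.669, 0.336 and 2.62 CPM in SAL females. In MOR males it was at 3.50, 3.32 and 2.27 CPM and in SAL males at 2.05, 1.26 and 1.44 CPM. SAL females 4 and 5 were low and SAL female 6 high, as for *Eomes*. It passed both thresholds in the sex-combined fit (0.88, standard error 0.36) and in males (0.91, 0.28), where the groups did not overlap, and ranked 20 of 19026 in within-group r with *Gabra6* (0.82). *Otx2*, a homeodomain factor that is also strong in choroid plexus, passed in males (1.02, 0.41), where the groups overlapped, and was highest in MOR male 5 at 9.41 CPM. It did not pass in females (-0.60, 0.87) or in the sex-combined fit (0.30, 0.60). *Calb2* had a within-group r of -0.34 with *Gabra6*. The 6 genes summed to 371.4 to 409.5 CPM in SAL females, 341.9 to 418.0 CPM in MOR females, 391.7 to 416.7 CPM in SAL males and 379.2 to 399.4 CPM in MOR males. Most of the sum came from *Plcb4*, named after its values were seen, and *Calb2*, at means of 166.1 and 132.7 CPM in MOR mice. *Lmx1a* and *Otx2* averaged 2.58 and 3.74 CPM there, so the sum cannot show how such low genes vary.

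Purkinje cells and Bergmann glia lie next to granule cells in the cerebellum. Of 12 Purkinje cell genes, 10 lay above 0 in the sex-combined fit (42.5% of all genes), and the median was 0.12 (-0.02 over all genes). The furthest from 0 were *Pcp2* (0.72, standard error 0.50) and *Ppp1r17* (0.48, 0.31), neither past the thresholds. The list summed to 430.0 CPM in MOR male 5 and to between 314.4 and 367.0 CPM in the other 11 mice. In that mouse *Ppp1r17* was at 6.74 CPM, *Car8* at 39.0 CPM and *Itpr1* at 85.8 CPM, each the highest of the 12, the last 2 named after their values were seen. SAL female 5, the lowest for *Gabra6*, was within the range of the others at 337.7 CPM. Within groups, r with *Gabra6* was 0.82 for *Itpr1* and 0.53 for *Car8*. It was -0.36 for *Skor2*, -0.27 for *Slc1a6* and -0.17 for *Homer3*, also named after their values were seen. The rest of the list lay between 0.05 and 0.44. *Pcp2*, a defining Purkinje cell gene, was at 0.0582 to 1.22 CPM. Their part in the levels of *Gabra6* and the genes that follow it was not tested. Of 4 Bergmann glia genes, *Fabp7* passed in females (0.30, 0.10), and *Gdf10* was at 0.21 (0.21) in the sex-combined fit, with sums of 554.3 to 721.4 CPM over the 12 mice.

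Among the brainstem markers *Hoxb2*, a segment gene of the hindbrain, passed in the sex-combined fit, lower in MOR mice (-0.47, standard error 0.22), and *Dbh* was at 0.17 (0.26). Of the forebrain genes, *Tbr1*, the T-box relative of *Eomes*, was at 0.36 (0.38), and *Emx1* was too low to be tested. Of 19 paralogs of the 9 genes, none passed in the sex-combined fit or in males, and *Etv4* passed in females (0.27, 0.12). *Tbr1* and *Neurod4* (-0.23, 0.24) were the furthest from 0. Of the receptors and neurexins to which cerebellins bind, 0 of 5 passed in any fit, and *Nrxn2* was at -0.14 (0.26). Each of these lists was chosen with earlier results known. After Benjamini-Hochberg adjustment, the *p* values of edgeR's quasi-likelihood test were 1.00 for each of the list genes named here.

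Single mice carried much of the difference for the genes that varied together. Without MOR male 5, *Gabra6* was at 0.65 rather than 0.99 in the sex-combined fit and no longer passed, *Cbln3* at 0.46 rather than 0.77, *Eomes* at 0.82 rather than 1.24 and *Neurod1* at 0.21 rather than 0.46, and the count of passing genes was 0 rather than 4. Without SAL female 6 they were 1.36, 1.07, 1.77 and 0.60. *Fat2* moved less, between 0.30 without SAL male 3 and 0.48 without SAL female 4, and passed in 6 of the 12 fits that left out 1 mouse, against 5 for *Gabra6*, 5 for *Cbln3* and 11 for *Eomes*. In males *Fat2* stayed between 0.74 and 0.90 and passed in 6 of 6 such fits, as did *Eomes*, between 0.96 and 2.02. *Gabra6* passed in 5 of 6 and *Cbln3* in 3 of 6, and both were lowest without MOR male 5, at 0.73 and 0.50. These fits of MOR against SAL rerun the contrasts known when the genes were picked. Nothing is read from their pass counts, which stand without the shares over all genes.

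Without the library labelled MOR male 6, the male values were higher for each of these genes: 1.61 for *Gabra6*, 1.38 for *Cbln3*, 2.02 for *Eomes*, 0.89 for *Neurod1* and 0.90 for *Fat2*, and 5 of the 9 genes passed rather than 4. In females the values depended on which SAL mouse was kept. *Gabra6* was at 0.09 without SAL female 5 and at 1.37 without SAL female 6, *Eomes* at 0.23 and 1.90, and *Cbln3* at 0.15 and 1.07.

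**Figure D5:**
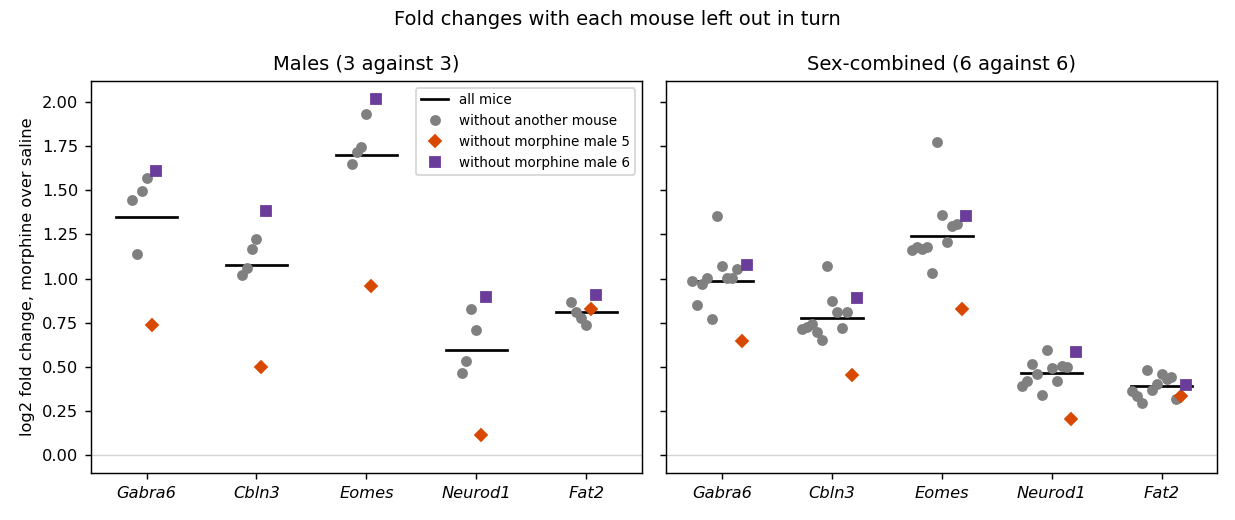
Log2 fold change of MOR over SAL (y axis) for *Gabra6*, *Cbln3*, *Eomes*, *Neurod1* and *Fat2* with all mice (line) and with 1 mouse left out at a time (points), in males and in the sex-combined fit. Leaving out MOR male 5 gives the lowest value of *Gabra6*, *Cbln3*, *Eomes* and *Neurod1* in both panels, and *Fat2* in males stays between 0.74 and 0.90.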

How the data were processed

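RNA from 12 mice, 1 library per mouse, had been sequenced by the authors as single-end reads on 1 lane. Per the study's methods, the authors used Trimmomatic for trimming, STAR for alignment to mm10 and featureCounts for reads on Ensembl exons. The deposited values are these raw counts for 55418 genes, which the paper calls normalized although they are whole numbers with unequal totals. Settings for strand and for reads that map to several genes are not given in the sources used here. Totals per library set the precision, and counting error was largest for *Eomes*.

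Groups came from the labels. The design text deposited with the series also names dam as a covariate, which the labels do not give, so it was not used. Counts were tested with edgeR 4.0.16 in R 4.3.3 (TMM, filterByExpr over the 4 groups, quasi-likelihood test, a sex term when both sexes were fitted together, each sex also fitted alone). Log2 CPM had a prior count of 2, and the standard error is the log2 fold change divided by the root of F. The fits were tested on simulated data. Positions and exon lengths are from GENCODE M21.

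The 9 genes and the marker lists were chosen with earlier results of these data known. Named are all 9 genes, each list gene past both thresholds in any fit, the 2 of each list furthest from 0 in the sex-combined fit, and the genes of highest correlation (top 10 for the mean profile, top 5 for *Gabra6*). Exceptions are said to be named after their values were seen, and *Calb2*, *Grin2c*, *Slc17a7* and *Atoh1* are such too. Some list genes that this rule names are not reported here. Alternatives were exactTest, DESeq2 1.42.0 and its size factors, scaling by total counts, no filter, at least 10 counts in every library, no sex covariate, a replicate block, each sex's contrast taken from all 12 mice, and leaving out each mouse.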

Additional observations from a re-analysis of the deposited data

Results flagged for a closer look

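Among 18 sets of 6 mice (9 genes, each treatment), the highest or lowest mouse lay far from the others by Dixon's 95% criterion in 3. All were MOR male 5 among the 6 MOR mice: *Gabra6* at 19.1 CPM, with the next mouse at 7.97 CPM, *Cbln3* at 21.8 CPM, with the next at 10.5 CPM, and *Eomes* at 5.30 CPM, with the next at 2.09 CPM. The criterion was applied to CPM, not to log2 CPM, and each set held mice of both sexes. Its chance rate of about 1 in 20 sets holds for normally distributed values, which was not tested here. The number of sets marked is therefore not compared with chance. These 3 genes vary together, so they are not separate events. *Neurod1* was also highest in this mouse, at 12.5 CPM, as was the sum of the 12 Purkinje cell genes, at 430.0 CPM.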

How the results depend on the processing

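The count of the 9 genes past both thresholds in the sex-combined fit, 4, was 1 with a replicate block, and it was 4 or within 1.5 times of it under the other settings that kept all mice. Mice with the same number did not deviate together (correlations of -0.34 to 0.18), which gives no sign that the numbers pair mice but does not exclude it. The paper split each litter between saline and morphine, and the labels do not give the litter, so pairing by litter was not tested. Within a sex no block could be fitted. In females the count, 1, was 0 with exactTest, 0 with the contrast from all 12 mice and 3 without a filter, where *Gabra6*, *Cbln3* and *Eomes* passed, higher in MOR mice, and *Zic2* did not. List genes past both thresholds numbered 1 rather than 4 in females with the contrast from all 12 mice, and 5 rather than 3 in males with scaling by total counts. With 1 mouse left out, the 9 genes gave counts of 0 (without MOR male 5) to 5 in the sex-combined fit, 0 to 4 (without SAL female 6) in females and 2 (without SAL male 2) to 5 in males. List genes gave 1 to 4 in the sex-combined fit, 2 to 9 (without SAL female 4) in females and 0 (without MOR male 4) to 24 (without SAL male 3) in males. The cause was not tested. The MOR against SAL contrasts were known when the 9 genes were picked, so nothing is read from how often these genes passed. Of 412 single-gene values, 407 moved by less than 1 SD between mice. *Eomes* could not be tested with at least 10 counts in every library in females or in the sex-combined fit.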
